A study of Homo sapiens with 12 samples.

Results

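The ion channels of the endosome and lysosome membrane were examined as a set of 9 genes in HEK293T, a human embryonic kidney line that takes up plasmids readily. The set holds the mucolipin cation channels TRPML1, TRPML2 and TRPML3 (genes MCOLN1, MCOLN2 and MCOLN3), the two-pore channels TPC1 and TPC2 (TPCN1 and TPCN2), the potassium and proton channel TMEM175, the chloride/proton exchangers ClC-6 and ClC-7 (CLCN6 and CLCN7), and OSTM1, the subunit that ClC-7 needs to be stable. Members were taken by symbol from the deposited table of raw counts, where each of the 9 had 1 row among 41878 gene rows. All 9 were among the 18030 genes that passed the filter on low counts and were tested. The cells had received 1 µg of an empty control vector or of a TRPML3 plasmid with the Effectene reagent. They were then either kept in medium with 10% serum (fed) or left in medium without serum for 4 h (starved), a treatment used to induce autophagy. The 4 groups, vector fed, vector starved, TRPML3 fed and TRPML3 starved, had 3 biological replicates each, and polyadenylated RNA was sequenced. All 4 groups share the transfection and the one cell line, and the labels do not state the promoter or the species of the TRPML3 insert or the share of cells that took it up, so a level is a mean over transfected and untransfected cells. In such bulk RNA, fewer cells with a transcript and less of it per cell cannot be told apart.

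Endosomes and lysosomes are acidified by a proton pump, and channels in their membrane set the voltage, the counter-ion flow and the release of stored calcium. TRPML channels release calcium and other cations into the cytosol when the lipid PI(3,5)P2 is made on the membrane, and TRPML1 is known for its part in lysosome exocytosis and in the activation of TFEB, a transcription factor that switches on lysosomal and autophagy genes. Two-pore channels carry sodium and calcium, TMEM175 carries potassium and protons and is linked to Parkinson's disease, and ClC-7 with OSTM1 exchanges chloride for protons, with loss of either causing osteopetrosis.

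Library totals ran from 33101540 to 43700547 counts, so 3 counts, taken as the detection floor, were at most 0.0906 CPM (counts scaled to a common library total, with TMM factors that correct for differences in library composition). The cell line's markers were present, among them VIM at a median of 380 CPM and LIN28B at 204, while the blood genes PTPRC, CD3E and HBB had a median of 0 CPM. PAX2 was the lowest of the 7 cell line markers, at a median of 3.54 CPM. Libraries with replicate number 3 stood apart in their response to serum. In replicates 1 and 2 MCOLN1, TMEM175 and CLCN7 were higher in the starved than in the fed library, and in replicate 3 they were lower, under both plasmids. This pattern was chosen after the values were seen, and 8.54% of the 18030 genes tested also showed it. The replicate 3 libraries also had the highest share of counts on mitochondrial genes, 4.83 to 5.70% against 1.05 to 4.40% in the other 8. Whether that share, or an exchange of labels, has a part in the pattern was not tested. Results on serum are therefore given with all 12 libraries and with the 8 libraries that remain without replicate 3.

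Levels of different genes were compared per kilobase of the transcript with the longest coding sequence, in the 6 vector libraries, because the plasmid sets MCOLN3 in the others. OSTM1 was the highest, at 13.1 ± 2.45 CPM per kb (SD, n = 6). MCOLN2 followed at 6.74 ± 2.14, CLCN7 at 5.82 ± 1.92 and MCOLN3 at 4.92 ± 1.40 CPM per kb. CLCN6 was at 3.62 ± 3.09, MCOLN1 at 2.93 ± 0.875 and TPCN1 at 2.82 ± 1.39 CPM per kb. The lowest levels per kb were those of TMEM175, 2.12 ± 0.611, and TPCN2, 1.38 ± 0.459. Every member overlapped its neighbour in this order over the 6 libraries, so on this length these ranges alone do not rank neighbours. In the 3 vector fed libraries OSTM1 (lowest 9.14 CPM per kb) did not overlap MCOLN2 (highest 8.78), and the other neighbours overlapped. With the union of all annotated exons as the length, a choice made after the data were seen, OSTM1, MCOLN2, CLCN7 and MCOLN3 kept the first 4 places and TPCN2 the last. CLCN6 then fell from the fifth place to the seventh, at 1.29 CPM per kb, behind TPCN1 at 1.72 and MCOLN1 at 1.54. On this length MCOLN2 (5.62 CPM per kb) did not overlap CLCN7 (2.67), nor TMEM175 (1.09) TPCN2 (0.393), over the 6 vector libraries, and the other neighbours overlapped.

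**Figure D1:**
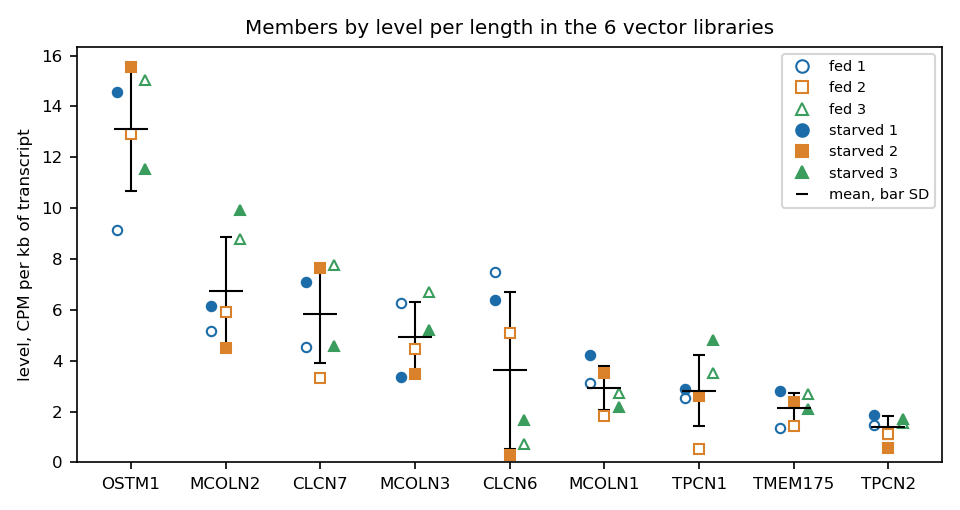
Level of each member per length of its transcript (CPM per kb, linear axis) in the 6 vector libraries, with open symbols for fed and filled symbols for starved libraries. Horizontal bars are means and vertical bars are SD (n = 6). OSTM1 lies highest, at a mean of 13.1, and TPCN2 lowest, at 1.38, and the points of each gene overlap those of its neighbour.

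Among the mucolipins, MCOLN3 (ENSG00000055732; GRCh38 chr1:85018082-85048499, minus strand, 13 exons in the transcript used) is the gene carried by the plasmid, and its count joins plasmid and cellular transcripts. It was at 17.3, 12.3 and 18.4 CPM in vector fed replicates 1, 2 and 3 and at 9.31, 9.63 and 14.4 in vector starved. In the TRPML3 libraries it was at 6211, 4929 and 39972 CPM when fed and at 41362, 58223 and 16896 when starved. The groups did not overlap, with the lowest TRPML3 library far above the highest vector library. Each was between 307-fold and 5239-fold above the mean of the vector libraries in the same serum state, and the highest TRPML3 library was 11.8-fold above the lowest. Fed replicates 1 and 2 were the lowest of the 6 and fed replicate 3 was close to starved replicate 1, so fed and starved TRPML3 libraries overlapped.

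**Figure D2:**
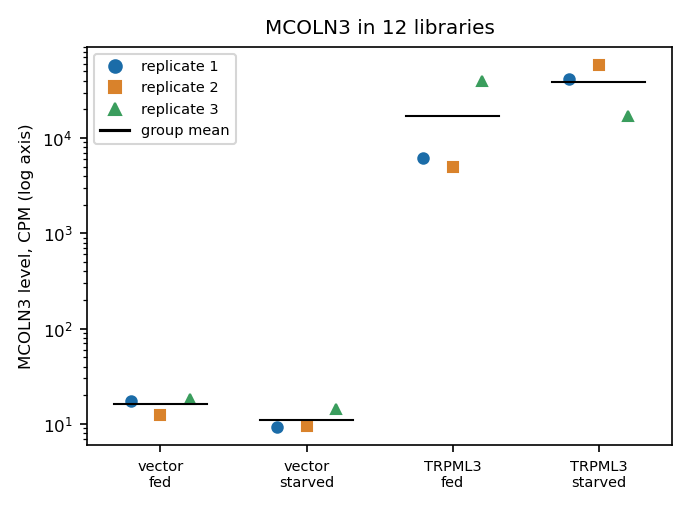
MCOLN3 level (CPM, log axis) in each of the 12 libraries by group, with the symbol giving the replicate and the bar the group mean. The 6 vector libraries lie between 9.31 and 18.4 CPM and the 6 TRPML3 libraries between 4929 and 58223 CPM, and within the TRPML3 groups replicate 3 lies opposite to replicates 1 and 2.

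MCOLN3 rose with the plasmid in fed cells, by 10.05 ± 1.03 (SE) on the log2 scale (edgeR quasi-likelihood adjusted p = 0.0117). It also rose in starved cells, by 11.77 ± 1.10 with an adjusted p of 0.00914. Averaged over both serum states the log2 change was 10.91 ± 0.755 (95% interval 9.24 to 12.6, adjusted p = 0.000453 in edgeR). Blocking on the replicate number, the adjusted p in edgeR was 0.110 in fed cells, 0.0775 in starved cells and 0.00789 for the average, so of the 3 only the average kept its call under the block. The log2 changes were then 9.73, 11.97 and 10.85. Without any 1 vector library of the comparison the fed call was lost too (edgeR adjusted p from 0.0938 without replicate 1 to 0.192 without replicate 2, and 0.190 without replicate 3), as was the starved call (0.136 without replicate 1, 0.170 without replicate 2 and 0.149 without replicate 3). The log2 change lay between 9.90 and 12.0 in those fits without a vector library. Omitting all 4 libraries of replicate 1, or of replicate 2, also ended the average's call (edgeR adjusted p = 0.149 and 0.117), with log2 changes of 11.05 and 10.79, and omitting those of replicate 3 did not (10.46 ± 0.25 SE, edgeR adjusted p = 0.000234). Serum state did not change MCOLN3 beyond the spread between replicates, with a log2 difference of -0.53 ± 0.71 (SE) in vector cells and 1.19 ± 0.71 in TRPML3 cells. The difference between those responses was 1.72 ± 1.00 (edgeR adjusted p = 1.0).

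MCOLN2 (ENSG00000153898; chr1:84925583-84997113, minus strand, 14 exons) lies 20968 bases from MCOLN3 and encodes TRPML2, a channel of recycling endosomes best known in immune cells. It was at 14.8, 17.0 and 25.2 CPM in fed replicates 1, 2 and 3 with the vector and 17.7, 12.9 and 28.5 in the starved ones. With the TRPML3 plasmid the fed replicates were at 25.5, 12.0 and 19.8 CPM and the starved ones at 17.0, 15.5 and 26.9. All 4 groups overlapped, and the group means lay between 19.0 and 19.8 CPM. The average log2 difference was 0.01 ± 0.28 (SE, 95% interval -0.61 to 0.62) with the plasmid and 0.05 ± 0.28 with starvation.

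MCOLN1 (ENSG00000090674; chr19:7522626-7534009, plus strand, 14 exons) encodes TRPML1, the main lysosomal calcium release channel, whose loss causes mucolipidosis type IV. It was at 6.48, 3.79 and 5.68 CPM in fed replicates 1, 2 and 3 with the vector and 8.77, 7.33 and 4.57 in the starved ones. With the TRPML3 plasmid the fed replicates were at 4.78, 4.82 and 6.52 CPM and the starved ones at 7.36, 5.81 and 5.33. Groups overlapped in every comparison. With the plasmid its average log2 difference was -0.07 ± 0.23 (SE, 95% interval -0.57 to 0.43).

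Since MCOLN3 made up as much as 5.52% of a library's counts, the likeness of the 3 mucolipin coding sequences bears on how well their counts are kept apart. MCOLN3 and MCOLN2 were identical at 66.4% of 1629 aligned coding positions, with a longest shared run of 15 bases, and MCOLN3 and MCOLN1 at 61.9%, with a longest run of 17 bases. A stretch of 60 coding bases around the longest run with MCOLN2 is shown from the GENCODE release 29 transcripts (GRCh38), with capitals in MCOLN3 for bases shared with MCOLN2, and capitals in the other genes for bases shared with MCOLN3. It covers coding bases 1287 to 1346 of MCOLN3, 1302 to 1361 of MCOLN2 (44 of 60 identical) and 1326 to 1385 of MCOLN1 (48 of 60 identical).
MCOLN3: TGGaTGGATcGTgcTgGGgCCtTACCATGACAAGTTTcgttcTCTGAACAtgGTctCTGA
MCOLN2: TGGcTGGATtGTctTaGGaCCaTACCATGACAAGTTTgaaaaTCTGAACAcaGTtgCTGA
MCOLN1: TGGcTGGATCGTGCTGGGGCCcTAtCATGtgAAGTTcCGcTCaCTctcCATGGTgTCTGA
No run longer than 17 bases was shared with MCOLN3 in this alignment, and in the libraries with the most MCOLN3 the other 2 mucolipins stayed within their vector range. In TRPML3 starved replicate 2, where MCOLN3 was at 58223 CPM, MCOLN2 was at 15.5 and MCOLN1 at 5.81 CPM.

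In vector cells the mucolipin transcripts were shared among all 3 genes. Per kb of transcript (longest coding sequence), MCOLN2 made up 35.4 to 57.2% of their sum over the 6 vector libraries (median 46.5%). MCOLN3 made up 24.5 to 43.2% (median 33.5%) and MCOLN1 12.6 to 30.6% (median 18.2%). In the TRPML3 libraries MCOLN3 was 99.5% or more of that sum in each of the 6. The shares depend on the length used. Per kb of the union of exons, the vector means were 5.62 CPM for MCOLN2, 2.05 for MCOLN3 and 1.54 for MCOLN1. No change was called in MCOLN1 or MCOLN2.

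The two-pore channel TPCN1 (ENSG00000186815; chr12:113221050-113298585, plus strand, 29 exons), found mainly on endosomes, was at 13.6, 2.92 and 18.7 CPM in vector fed and 15.5, 13.9 and 25.7 in vector starved replicates 1, 2 and 3. In TRPML3 libraries it was at 16.5, 4.22 and 18.6 CPM when fed and 18.5, 3.44 and 22.3 when starved. Replicate 2 was the lowest in all 4 groups, with vector starved replicate 2 close to its group's replicate 1, and the other 3 replicate 2 libraries were at 4.22 CPM or below. Its average log2 difference was -0.08 ± 0.56 (SE) with the plasmid and 0.41 ± 0.56 with starvation.

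TPCN2 (ENSG00000162341; chr11:69048897-69162440, plus strand, 25 exons), the lysosomal two-pore channel, was at 4.31, 3.31 and 4.53 CPM in vector fed and 5.44, 1.71 and 4.95 in vector starved replicates 1, 2 and 3. In TRPML3 libraries it was at 1.56, 3.49 and 9.16 CPM when fed and 10.2, 7.76 and 3.56 when starved. The 3 highest libraries all carried the TRPML3 plasmid, but so did the lowest, and all groups overlapped. The average log2 difference with the plasmid was 0.53 ± 0.45 (SE, 95% interval -0.47 to 1.52), the largest among the 8 members other than MCOLN3, and its adjusted p in edgeR was 1.0. Per kb, TPCN2 over TPCN1 ran from 0.224 to 2.07 in vector libraries and from 0.172 to 4.11 in TRPML3 libraries, so neither channel was the higher one in every library.

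TMEM175 (ENSG00000127419; chr4:932387-958656, plus strand, 11 exons) was at 2.55, 2.65 and 4.99 CPM in fed replicates 1, 2 and 3 with the vector and 5.19, 4.39 and 3.92 in the starved ones. With the TRPML3 plasmid the fed replicates were at 2.33, 1.88 and 4.73 CPM and the starved ones at 4.38, 3.98 and 3.50. Its raw counts were low, 72 to 212 per library. Each TRPML3 library lay below the vector library of the same number and serum state. The average log2 difference with the plasmid was -0.19 ± 0.28 (SE, 95% interval -0.80 to 0.42), and it was not called.

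Of the anion carriers, CLCN6 (ENSG00000011021; chr1:11806096-11848079, plus strand, 22 exons), the late endosomal exchanger known mainly from neurons, varied most. It was at 21.9, 14.9 and 2.15 CPM in fed replicates 1, 2 and 3 with the vector and 18.6, 0.909 and 4.91 in the starved ones. With the TRPML3 plasmid the fed replicates were at 12.4, 7.58 and 12.6 CPM and the starved ones at 14.3, 2.34 and 17.1. The lowest libraries held 34, 75 and 78 counts and the highest 798, all above the detection floor. The low libraries belonged to no single group or replicate number, and the highest level was 24.1-fold above the lowest.

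CLCN7 (ENSG00000103249; chr16:1444934-1475580, minus strand, 24 exons), the lysosomal exchanger, was at 16.8, 12.3 and 28.9 CPM in vector fed and 26.4, 28.5 and 16.9 in vector starved replicates 1, 2 and 3. In TRPML3 libraries it was at 16.1, 8.60 and 25.4 CPM when fed and 28.8, 28.0 and 13.4 when starved. No library lay between 16.9 and 25.4 CPM, and the upper 6 were fed replicate 3 and starved replicates 1 and 2 under each plasmid. These were also the 6 highest libraries for TMEM175, where the last of them, at 3.98 CPM, was close to vector starved replicate 3 at 3.92.

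OSTM1 (ENSG00000081087; chr6:108041409-108165854, minus strand, 6 exons), the partner of ClC-7, was at 40.8, 57.7 and 67.1 CPM in fed replicates 1, 2 and 3 with the vector and 65.1, 69.5 and 51.5 in the starved ones. With the TRPML3 plasmid the fed replicates were at 73.7, 59.1 and 74.0 CPM and the starved ones at 61.6, 69.6 and 47.1. It was the steadiest member, with 1.81-fold between its highest and lowest library. Exchanger and subunit did not keep a fixed ratio. Per kb, CLCN7 over OSTM1 ran from 0.256 to 0.518 in vector libraries and from 0.175 to 0.562 in TRPML3 libraries.

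**Figure D3:**
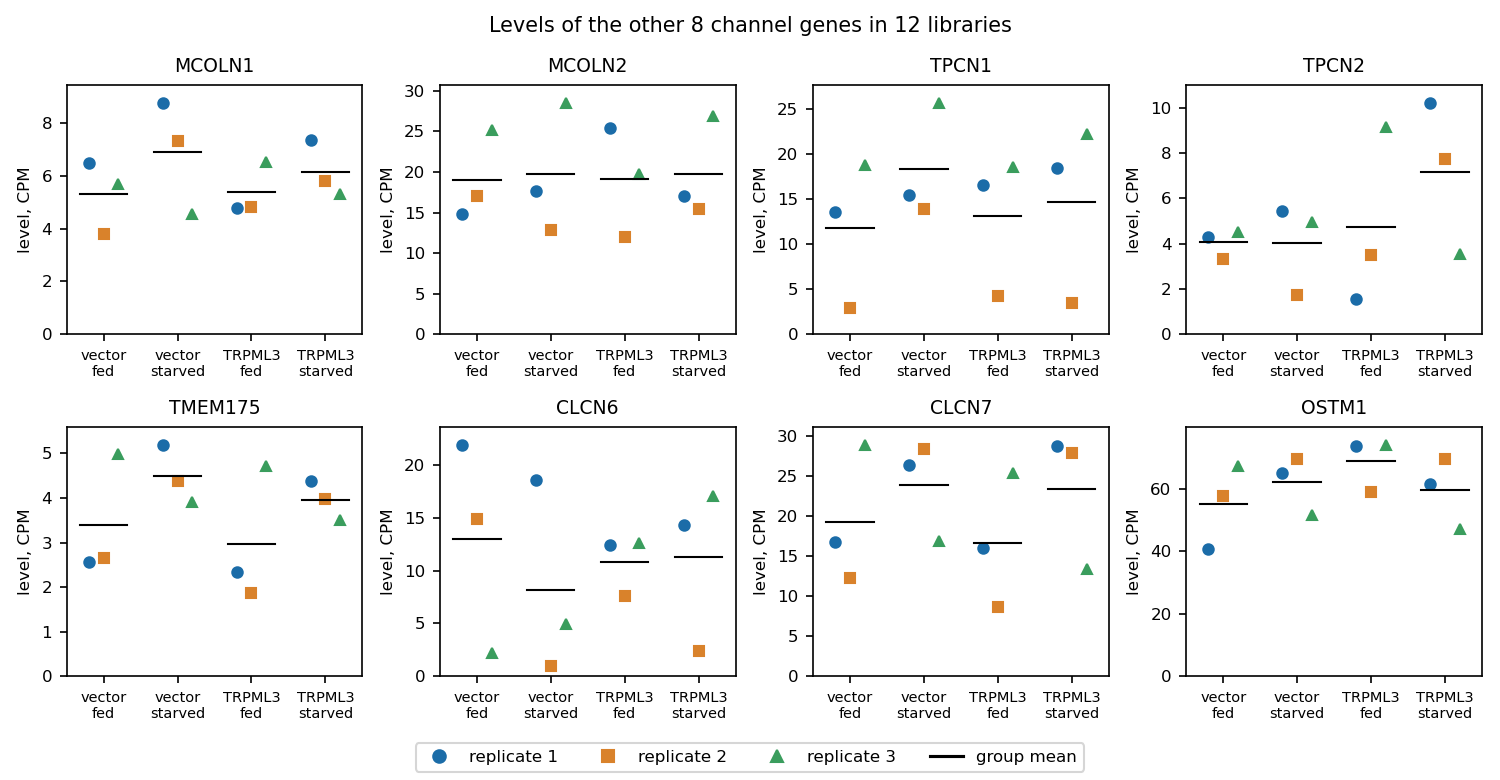
Level (CPM, linear axes that start at 0) of the 8 members other than MCOLN3 in the 12 libraries by group, with the symbol giving the replicate and the bar the group mean (n = 3). All groups overlap in all 8 genes. In CLCN7, TMEM175 and MCOLN1 replicate 3 lies lower when starved and replicates 1 and 2 lie higher, and in TPCN1 and CLCN6 single libraries lie far below the rest.

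Some of these loci overlap others. MCOLN3 overlaps WDR63, TPCN1 overlaps IQCD and OSTM1 overlaps OSTM1-AS1, each on the opposite strand, and MCOLN1 overlaps PNPLA6 on its own strand. The sources used here do not state whether the counting used strand, so a share of these members' counts may belong to the overlapping gene, and its size was not tested.

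To ask whether extra TRPML3 changes the transcripts of the other channels, TRPML3 libraries were compared with vector libraries. MCOLN3 was the 1 member called in fed cells, in starved cells and on average. Over all genes tested the calls were 0.0111% in fed cells, 0.00555% in starved cells and 0.0111% for the average. None of the other 8 members passed (edgeR adjusted p = 1.0 for each in all 3 comparisons). Their log2 differences ran from -0.26 for CLCN6 to 0.32 for OSTM1 in fed cells, with 5 higher and 3 lower, and from -0.32 for TPCN1 to 0.83 for TPCN2 in starved cells, with 3 higher and 5 lower. The median over the 8 was 0.011 in fed cells and -0.047 in starved cells, beside medians of -0.0094 and -0.0060 over all genes tested.

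The intervals show which changes these libraries could have missed. For OSTM1 the 95% interval of the average plasmid effect was -0.24 to 0.50 on the log2 scale (estimate 0.13 ± 0.17 SE), the narrowest of the set. For CLCN7 it was -0.85 to 0.61 (estimate -0.12 ± 0.33) and for TMEM175 -0.80 to 0.42. For CLCN6 it was -1.52 to 1.72 (estimate 0.10 ± 0.73) and for TPCN1 -1.31 to 1.15, and neither excludes a change of 2-fold in either direction. For TPCN2 it was -0.47 to 1.52, which does not exclude a rise of 2-fold. Within 1 serum state the intervals were wider. In fed cells they were -1.25 to 0.82 for CLCN7 and -1.06 to 0.67 for TMEM175, and neither excludes a fall of 2-fold. The unadjusted edgeR p of the 8 members other than MCOLN3 was 0.206 or more in fed cells and 0.222 or more in starved cells. Over all genes tested, 398 (2.21%) and 396 (2.20%) were under 0.05.

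Whether serum withdrawal, which induces autophagy, changes the channel genes was asked by setting starved against fed libraries. With all 12 libraries, 0 of the 9 members passed in edgeR's test in vector cells, in TRPML3 cells, on average or in the interaction. Over all genes tested the calls were 0.00555% in vector cells, 0% in TRPML3 cells, 0% on average and 0% in the interaction. At an unadjusted edgeR p under 0.05 there were 800, 1030, 1704 and 374 genes in these 4 tests. These were 4.44%, 5.71%, 9.45% and 2.07% of the genes tested. DESeq2's Wald test called 43, 89, 273 and 27 genes. Among the genes of either kind there were 0 members in each test. Starved and fed libraries overlapped for every member under either plasmid. The share of all genes tested that overlap in this way was not counted, so this only describes the members. The average log2 difference was 0.41 ± 0.28 (SE) for TMEM175, 0.40 ± 0.33 for CLCN7, 0.29 ± 0.23 for MCOLN1, 0.30 ± 0.45 for TPCN2, -0.31 ± 0.73 for CLCN6 and -0.02 ± 0.17 for OSTM1. The median over the 8 members other than MCOLN3 was 0.29, beside 0.0062 over all genes tested.

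Without the 4 libraries of replicate 3, an alternative chosen with earlier results of these data known, 810 of 18052 genes were called for average starvation, and 2.54% of those tested were called higher. TMEM175 was called, with a log2 change of 0.95 ± 0.18 (SE, 95% interval 0.52 to 1.37, edgeR adjusted p = 0.0446). In the 4 fed libraries left it was at 1.88 to 2.65 CPM and in the 4 starved libraries at 3.98 to 5.19. CLCN7 had a similar difference, 1.07 ± 0.25 (95% interval 0.46 to 1.68), which did not pass (edgeR adjusted p = 0.0697). MCOLN1 was at 0.56 ± 0.23 and TPCN2 at 0.88 ± 0.45, and neither passed (edgeR adjusted p = 0.214 and 0.299). OSTM1, CLCN6, TPCN1 and MCOLN2 had 0.23 ± 0.16, -0.58 ± 0.95, 0.46 ± 0.76 and -0.12 ± 0.28.

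The TMEM175 call rests on that choice of libraries. Without replicate 1 its log2 difference was 0.14 ± 0.40 (SE) and without replicate 2 it was 0.21 ± 0.38, and CLCN7 was at 0.20 ± 0.50 and -0.03 ± 0.38. MCOLN3 was also called for average starvation without replicate 3 (log2 1.27 ± 0.17, edgeR adjusted p = 0.0289), but its value joined -0.63 ± 0.24 in vector cells with 3.17 ± 0.26 in TRPML3 cells, of opposite sign. Neither of these passed alone (edgeR adjusted p = 0.320 and 0.0642), and their difference was 3.80 ± 0.35 (edgeR adjusted p = 0.163).

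**Figure D4:**
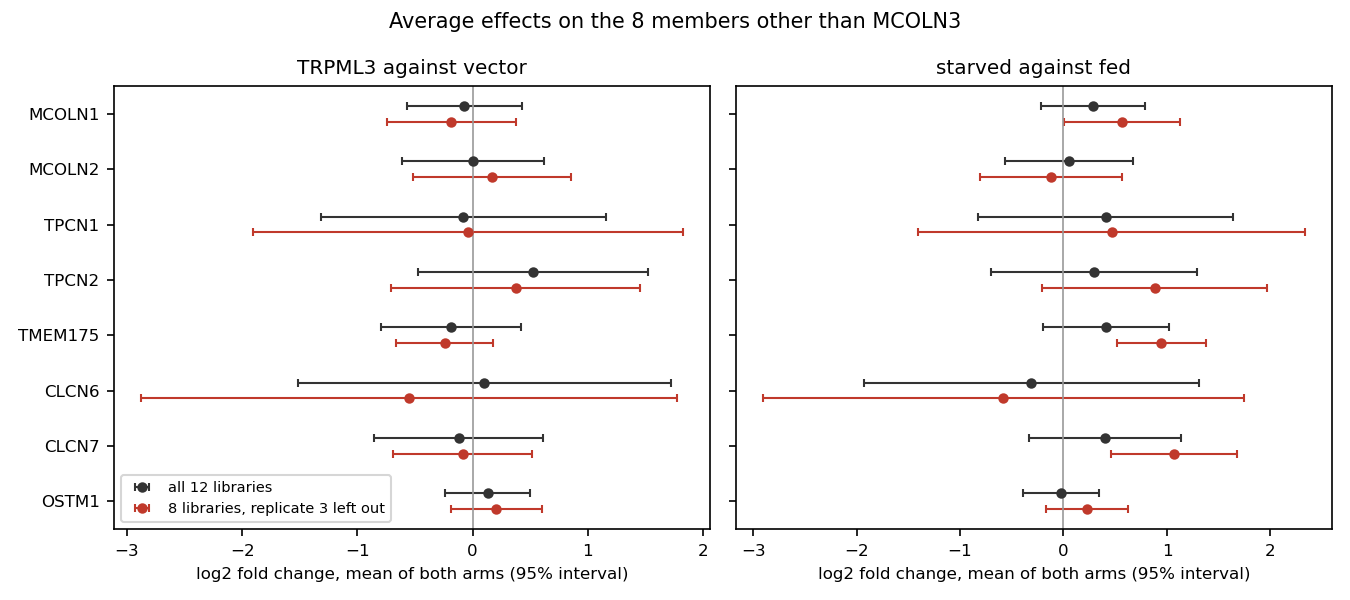
Average log2 fold change of the 8 members other than MCOLN3 with the TRPML3 plasmid (left) and with starvation (right), with 95% intervals, from all 12 libraries (dark) and from the 8 libraries without replicate 3 (red). With the plasmid every interval includes 0. With starvation the estimates for TMEM175 and CLCN7 go from 0.41 and 0.40 to 0.95 and 1.07 when replicate 3 is left out.

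MCOLN1, TMEM175 and CLCN7 showed the pattern of replicate 3 under both plasmids, TPCN2 and MCOLN3 in TRPML3 libraries only, and OSTM1 in vector libraries only. TFEB and its relatives bind a sequence with CACGTG at its core, and the promoters of the members were searched for it. A RefSeq promoter of 300 bases (GRCh38.p14, from 250 before to 50 after the start) was matched for 8 of the 9 members. CACGTG, which reads the same on both strands, was in 3 of these 8 members, CLCN6, CLCN7 and MCOLN1. Counted by promoter rather than by gene, it was in 7.25% of 35097 promoters of this length. The units differ, since TPCN1 had 2 promoters, both without CACGTG. The windows from 60 bases before to 15 after the start hold CACGTG at 2 places in each of the 3 genes. They are printed for MCOLN1 and CLCN7, with CACGTG in capitals. Their positions are chr19:7522564-7522638 on the plus strand for MCOLN1 and chr16:1475014-1475088 on the minus strand for CLCN7.
MCOLN1: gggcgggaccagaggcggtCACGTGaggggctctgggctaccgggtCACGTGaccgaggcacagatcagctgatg
CLCN7: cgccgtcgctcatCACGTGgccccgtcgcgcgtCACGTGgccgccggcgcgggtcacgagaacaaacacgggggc
The copies begin 41 and 14 bases before the start in MCOLN1 and 47 and 27 before it in CLCN7. Of the 3 genes, CLCN7 and MCOLN1 showed the pattern of replicate 3 and CLCN6 did not. TMEM175, which showed it, held no CACGTG in its 300 bases. Whether TFEB or its relatives have a part in the pattern was not tested.

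The amount of plasmid transcript differed 11.8-fold among the TRPML3 libraries, so each other member was set against MCOLN3 over those 6 libraries on the log2 scale. TMEM175 had a Pearson r of 0.95 (exact permutation p = 0.0111) and a Spearman rho of 0.77 (exact permutation p = 0.103), CLCN7 an r of 0.89 (exact p = 0.0264) and a rho of 0.89 (exact p = 0.0333). For TPCN2 r was 0.87 (exact p = 0.0375) and rho 0.77 (exact p = 0.103), and for MCOLN1 r was 0.83 (exact p = 0.0528) and rho 0.77 (exact p = 0.103). After adjustment over the 8 members none passed, with the smallest adjusted values 0.0889 for r and 0.206 for rho, and 6 libraries allow no raw p below 0.00139. The permutations pooled fed and starved libraries, so these p-values take no account of serum state or replicate number. MCOLN2, TPCN1, CLCN6 and OSTM1 had r of -0.02, 0.06, -0.29 and 0.18, with exact permutation p from 0.669 to 0.978, and rho of -0.086, -0.086, -0.029 and 0.26, with exact permutation p from 0.658 to 1.0.

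Without the 2 libraries farthest from the median of MCOLN3, TRPML3 fed replicates 1 and 2, r over the remaining 4 was 0.95 for CLCN7, 0.85 for TPCN2, 0.63 for TMEM175 and 0.51 for MCOLN1. The relations of TMEM175 and MCOLN1 were weaker without them. Over the same 4 libraries r was 0.89 for OSTM1, -0.69 for TPCN1, -0.71 for CLCN6 and -0.97 for MCOLN2, so members with little relation over 6 libraries reached values as large. The 3 libraries of a serum state and the 2 of a replicate number are too few for a correlation within either. In order of rising MCOLN3, CLCN7 was at 8.60, 16.1 and 25.4 CPM in the fed libraries and at 13.4, 28.8 and 28.0 in the starved ones. Among the TRPML3 libraries, fed replicate 3 and starved replicates 1 and 2 held the most MCOLN3. The amount of MCOLN3 and the pattern of replicate 3 therefore cannot be told apart in them. CLCN7 and TMEM175 divided the vector libraries in the same way, into fed replicate 3 with starved replicates 1 and 2 against the others. MCOLN3 was at 9.31 to 18.4 CPM in the vector libraries. Whether the MCOLN3 level has a part in these relations was not tested.

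**Figure D5:**
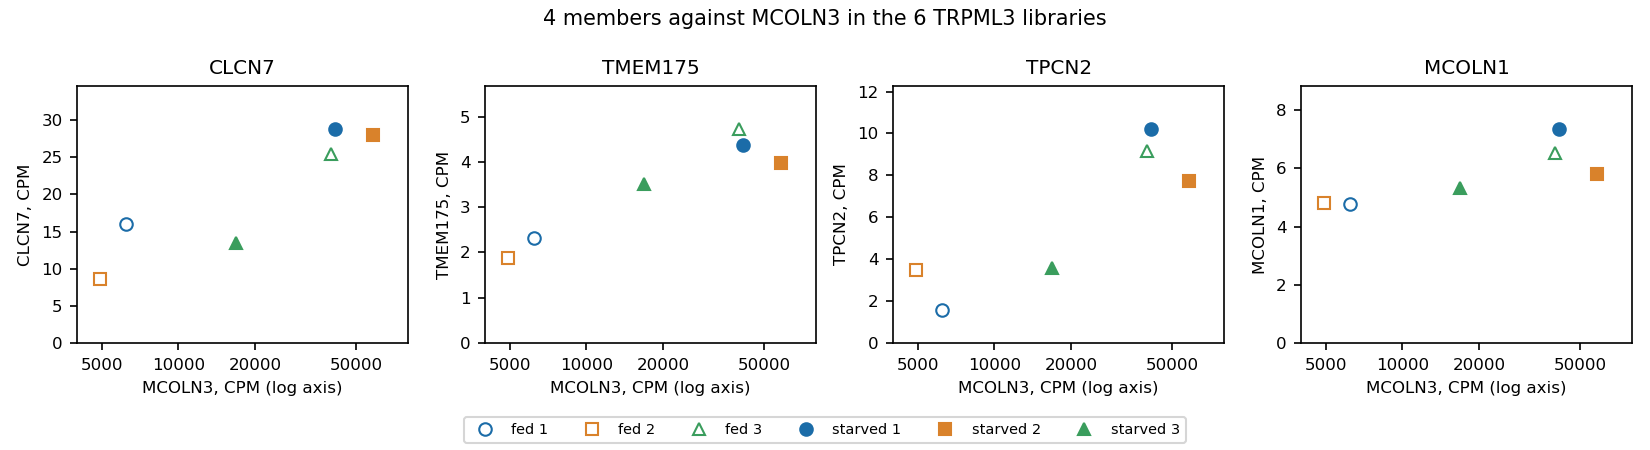
Level of CLCN7, TMEM175, TPCN2 and MCOLN1 (CPM, linear axis) against MCOLN3 (CPM, log axis) in the 6 TRPML3 libraries, with open symbols for fed and filled symbols for starved. Fed replicate 3 and starved replicates 1 and 2 lie at the upper right of each panel, with fed replicates 1 and 2 and starved replicate 3 at lower MCOLN3 levels.

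The members differed in how far replicates of a group varied, given as edgeR's biological coefficient of variation over the 12 libraries. OSTM1 had 0.260, above 11.9% of the genes tested, and MCOLN1, TMEM175 and MCOLN2 had 0.340, 0.380 and 0.391. CLCN7 was at 0.441, TPCN2 at 0.563 and MCOLN3, which the plasmid sets, at 0.589. TPCN1 at 0.675 and CLCN6 at 0.844 lay above 80.2% and 87.6% of the genes tested, where the common value was 0.527. TMEM175, with at most 212 counts in a library, had a smaller spread than both of these.

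The genes whose levels ran most like each member's over the 12 libraries were found among 14130 genes with a mean of at least 1 CPM, by Pearson r on the log2 scale. The closest to CLCN7 were HOMEZ and IBA57 (r = 0.97 for both), and to TMEM175 the mitochondrial ribosomal protein genes MRPL17 (0.97) and MRPL1 (0.96). For MCOLN1 they were FOXRED2 (0.93) and WARS2-AS1 (0.89), and for MCOLN2 NPIPB5 (0.88) and NCOA1 (0.87). TPCN1 ran with DDX41 (0.95) and MEGF6 (0.94), TPCN2 with OXA1L (0.94) and TRAF3 (0.91). For CLCN6 they were BHLHE41 (0.92) and SOBP (0.87), and for OSTM1 BRD1 (0.93) and IL17RA (0.92). Over the 6 TRPML3 libraries MCOLN3 ran with PPCS (1.00) and DDX28 (0.99). These values describe the libraries, which the genes share, and the highest of so many genes is high by selection.

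Other genes of endolysosomal ion transport gave the members' setting. Of 12 chloride and proton carriers, 13 regulators and partners of TRPML and two-pore channels and 13 tested of 14 other cation channels and transporters, 0 were called in any of the 7 comparisons in edgeR's test with all 12 libraries. The smallest p in the plasmid average belonged to TMEM9, a partner of the endosomal ClC exchangers, at -0.53 ± 0.22 (SE, log2), to HAX1 at 0.72 ± 0.33 and to the zinc and manganese carrier SLC39A8 at -0.35 ± 0.25 (edgeR adjusted p = 1.0 for each). In the starvation average it belonged to TMEM9 at 0.50 ± 0.22, to the lysosomal membrane protein LAMP2 at -0.16 ± 0.097 and to the iron carrier SLC11A2 at -0.85 ± 0.24 (edgeR adjusted p = 0.498, 0.666 and 0.363). Without replicate 3, VAC14, the scaffold of the PIKfyve complex that makes the lipid PI(3,5)P2, was called for average starvation (log2 0.80 ± 0.16, edgeR adjusted p = 0.0499). That fit called 810 of all 18052 genes tested for average starvation. It was at 17.0, 20.8 and 37.1 CPM in fed replicates 1, 2 and 3 with the vector and 35.4, 37.0 and 27.4 in the starved ones. With the TRPML3 plasmid the fed replicates were at 18.0, 21.7 and 35.6 CPM and the starved ones at 34.1, 28.1 and 23.9. VAC14 thus showed the pattern of replicate 3 under both plasmids, as TMEM175, CLCN7 and MCOLN1 did. So did 8.54% of the 18030 genes tested with all 12 libraries.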

How the data were processed

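Polyadenylated RNA of 12 HEK293T libraries was measured. The authors deposited whole-number counts per gene and library with Ensembl identifiers and symbols. Per the submitters' processing notes, FastQC, fastp, HISAT2, StringTie and DESeq2 were used on GRCh38, with no versions or roles given. Which annotation release was used, and whether counting was stranded, is not given in the sources used here. A second, normalized table was not used here.

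Groups and replicate numbers came from the sample titles. The members and gene lists were chosen with earlier results of these data known. Named genes are the 9 members, listed pathway genes at an adjusted p under 0.05 or else with the smallest p of their list in each average comparison, and the 2 genes most like each member.

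Counts were analysed with edgeR 4.0.16 in R 4.3.3 (TMM, filterByExpr, robust quasi-likelihood fit to all 12 libraries, 1 coefficient per group, Benjamini-Hochberg adjustment at 0.05). An average effect is the mean of both arms. Standard errors came from the log2 fold change and its F. The script was tested on simulated data. P-values measure the spread between the 3 libraries of a group. No 2 libraries agreed within counting noise (chi-square per degree of freedom at least 153 in 66 pairs). Deviations from group means correlated between same-numbered vector and TRPML3 libraries at 0.11, 0.15 and 0.33 when fed and 0.13, 0.095 and 0.32 when starved, and between fed and starved libraries at -0.076 to 0.0075. Same-numbered vector and TRPML3 libraries were thus weakly alike in both serum states, most at number 3, which is only a hint of pairing. Alternatives were the Wald test of DESeq2 1.42.0, its size factors, no scaling beyond library size, scaling without MCOLN3, other filters, the replicate block and omitted libraries. Loci, lengths and coding sequences came from GENCODE release 29. Some overlapping loci are not reported here.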

Additional observations from a re-analysis of the deposited data

How the results depend on the processing

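Of 441 log2 fold changes of members under 7 other settings, 424 kept their direction and their side of the threshold, 15 changed sign and 2 lost their call. Of 945 with a library or a replicate number left out, 802 kept both, 129 changed sign, 12 lost their call (all for MCOLN3) and 2 gained one (TMEM175 and MCOLN3, average starvation, without replicate 3). The sign changes were in differences that passed no test with all 12 libraries, and their cause was not tested.

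Scaling by library size alone moved the median of all genes by -0.037 to -0.104 (log2). It gave MCOLN1 -0.063 for TRPML3 in fed cells, and MCOLN2 -0.050 for TRPML3 in fed cells, -0.10 in starved cells, -0.036 for starvation in TRPML3 cells, -0.077 for average TRPML3 and -0.010 for average starvation. It gave CLCN6 -0.030 for starvation in TRPML3 cells and TMEM175 -0.011 in the interaction. Requiring 10 counts in every library gave MCOLN2 -0.00061, -0.0022 and -0.0014 for TRPML3 in fed cells, in starved cells and on average, and no filter gave TMEM175 -0.0023 in the interaction. For TPCN1 against MCOLN3, rho was -0.086 and r without the 2 farthest libraries was -0.69.

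With the replicate number as a block, MCOLN2 had -0.00043 for starvation in vector cells and 0.035 in the interaction, and CLCN6 -0.18 for starvation in TRPML3 cells. The block left 0 genes and 0 members called for TRPML3 in fed and in starved cells, 0 genes for starvation in vector cells and 1 gene for average TRPML3, and it changed no other call of a member. DESeq2's Wald test called 30 and 43 genes for TRPML3 in fed and starved cells, 43 and 89 for starvation in vector and TRPML3 cells, 27 in the interaction, 29 for average TRPML3 and 273 for average starvation. In all of these its members called were those called by edgeR.

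With a library or a replicate number left out, the genes called for TRPML3 ran from 0 to 4 in fed cells, 0 to 5 in starved cells and 0 to 6 on average, and the members called from 0 to 1 in each. For starvation the genes called ran from 0 to 2 in vector cells, 0 to 3 in TRPML3 cells, 0 to 3 in the interaction and 0 to 810 on average, with 0 to 2 members for the average.
Log2 changes for TRPML3 in fed cells then ran from -0.18 to 0.25 for MCOLN1, -0.42 to 0.26 for MCOLN2, -0.30 to 0.67 for TPCN1, -0.68 to 0.68 for TPCN2, -0.69 to 0.19 for TMEM175, -0.87 to 0.34 for CLCN6 and -0.64 to 0.20 for CLCN7.
In starved cells they ran from -0.39 to 0.052 for MCOLN1, -0.29 to 0.37 for MCOLN2, -0.76 to 0.15 for TPCN1, -0.23 to 1.95 for CLCN6, -0.23 to 0.24 for CLCN7 and -0.19 to 0.075 for OSTM1.
For average TRPML3 they ran from -0.19 to 0.077 for MCOLN1, -0.20 to 0.19 for MCOLN2, -0.31 to 0.18 for TPCN1, -0.44 to 0.0031 for TMEM175, -0.55 to 0.98 for CLCN6 and -0.34 to 0.083 for CLCN7.
Starvation in vector cells gave -0.31 to 0.31 for MCOLN2, -0.28 to 0.36 for TPCN2, -0.080 to 0.93 for CLCN7 and -0.057 to 0.46 for OSTM1.
In TRPML3 cells it gave -0.027 to 0.46 for MCOLN1, -0.24 to 0.41 for MCOLN2, -0.27 to 0.64 for TPCN1, -0.16 to 1.84 for TPCN2 and -0.40 to 0.53 for CLCN6.
The interaction ran from -0.40 to 0.035 for MCOLN1, -0.30 to 0.44 for MCOLN2, -0.38 to 0.50 for TMEM175 and -0.23 to 0.61 for CLCN7.
Average starvation ran from -0.13 to 0.19 for MCOLN2, -0.13 to 1.27 for MCOLN3, -0.20 to 0.88 for TPCN2, -1.06 to 0.15 for CLCN6, -0.032 to 1.07 for CLCN7 and -0.17 to 0.23 for OSTM1.

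Every member had at least 34 counts in each library. How much counting depth and the spread between replicates each add to the intervals was not tested.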
